A study of Arabidopsis thaliana with 12 samples.

Results

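The genes described here are 42 *Arabidopsis thaliana* loci of the jasmonate pathway, chosen by their known function: enzymes of jasmonate synthesis, enzymes that modify or degrade the hormone, the receptor *COI1*, the *JAZ* repressors, the *MYC* transcription factors and a few response genes. Of the 42 loci, 41 have a row among the 26245 gene models of the deposited table, and *DAD1* (AT2G44810), a phospholipase gene, was not analysed here. *TAT3*, a tyrosine aminotransferase gene, was below the filter of at least 1 CPM (reads of a gene per 1000000 counted) in at least 3 libraries, which left 40 of these genes among the 19961 models tested. The list was put together with earlier results of these data in view, and which measured values bore on the choice is not recorded. The counts of genes past the test are therefore a description of these 42 loci, and nothing about the pathway as a whole is read from them.

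RNA was sequenced from whole seedlings to find transcripts that respond when the clock factor RVE8, a MYB-like protein that binds the evening element, is activated. The *RVE8:GR* line carries RVE8 fused to the glucocorticoid receptor under the native *RVE8* promoter, in the *rve8-1* mutant with the *CCR2::LUC+* reporter. The control line is *rve8-1* itself, so both lines carry the *rve8-1* mutation. Whether the control seedlings sequenced here also carried the reporter is not stated. Seedlings of 7 days, grown in 12 h light and 12 h dark with 3% sucrose, were given dexamethasone (DEX), which lets the fusion protein enter the nucleus, or a mock solution at ZT4 (4 h after lights on) and were harvested 4 h later, at ZT8. Each of the 4 groups, *RVE8:GR* + DEX, *RVE8:GR* + mock, *rve8* + DEX and *rve8* + mock, has 3 libraries, each from a pool of about 30 seedlings. The *RVE8:GR* line is a line with 1 insertion, so line and insertion cannot be told apart. In whole seedlings, fewer cells of a type and less RNA per cell cannot be told apart either.

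Jasmonates are made from fatty acids of the plastid. Lipoxygenase, allene oxide synthase and allene oxide cyclase act in the plastid, OPR3 and the enzymes of beta-oxidation act in the peroxisome, and JAR1 joins jasmonic acid to isoleucine to give the active hormone. The hormone brings JAZ repressors to the F-box protein COI1 for degradation, which frees MYC2 and its relatives to switch on defence genes and, among their targets, the synthesis and *JAZ* genes themselves. In leaves the pathway is best known for the response to wounding and chewing insects.

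Each library held 15975840 to 21713130 counts, and 3 counts correspond to 0.138 to 0.188 CPM. *RVE8* transcript, which includes that of the fusion gene, averaged 5.67 ± 0.571, 8.95 ± 0.727, 0.991 ± 0.367 and 1.12 ± 0.809 CPM in the order of groups given above, and was higher in every *RVE8:GR* library than in every *rve8* library. Of the tissue markers, the 5 of shoot and the 5 of root were present in all libraries, and the flower markers *AP1*, *AG* and *AP3* summed to at most 0.424 CPM. The library *RVE8:GR* + mock 2 stood apart for the jasmonate genes: it held the highest CPM of the 12 libraries for 26 of the 40 genes tested, against 7.73% of all models tested. Within *RVE8:GR* + mock alone it was the highest library for 30 of the 40 genes, against 32.8% of all models. Each other group also had a library that was the highest of its group for many of the 40 genes. This was *rve8* + mock 2 for 26 (28.9% of all models), *rve8* + DEX 1 for 25 (31.4%) and *RVE8:GR* + DEX 2 for 20 (34.4%). The counts and medians of the 40 genes in the comparisons that *RVE8:GR* + mock 2 enters are given with and without that library.

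**Figure D1:**
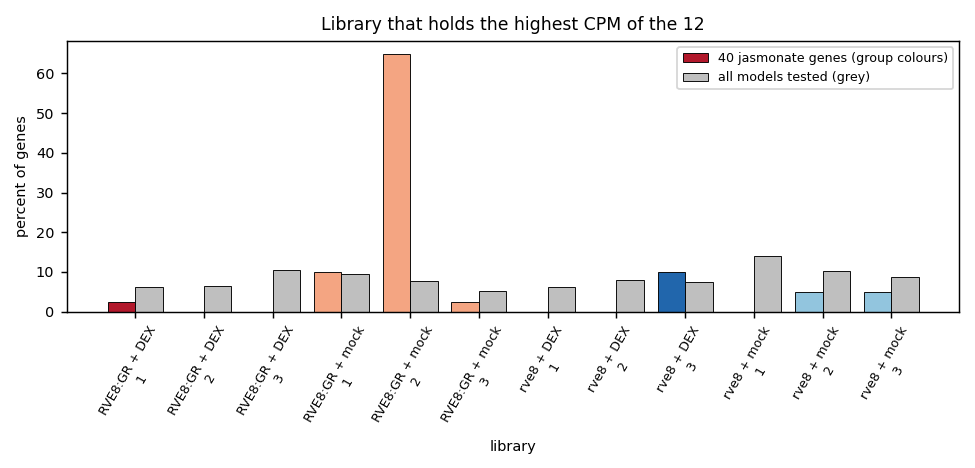
Bars give the percent of genes (vertical axis) whose highest CPM lay in each of the 12 libraries (horizontal axis), for the 40 jasmonate genes in group colours and for all 19961 models tested in grey. *RVE8:GR* + mock 2 holds the highest value of 26 of the 40 genes and of 7.73% of all models.

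Some members have a known regulatory sequence close to their start. MYC2 and its relatives bind the G-box, CACGTG, and RVE8 binds the evening element, AAATATCT. In the window from 250 bp before to 50 bp after the annotated transcript start (both strands searched, RefSeq annotation of TAIR10.1), a G-box stood in 7 of 41 member promoters and in 8.17% of 25278 promoters of all models. Those 7 are *AOS*, *OPR3*, *ACX1*, *JAZ2*, *JAZ3* (with 2), *JAZ7* and *JAZ8*. The evening element stood in 4 members (*LOX3*, *AOC2*, *OPR3* and *JAZ10*) and in 5.65% of all promoters. The CCA1-binding site AAAAATCT stood in *NINJA* among the members and in 7.64% of all promoters. These motifs do not contain each other, and a match is only a match of letters.

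The G-box sites are shown for 3 of the 5 genes that fell with DEX in *RVE8:GR* (*AOS*, *OPR3* and *JAZ8*), for *JAZ7*, the close relative of *JAZ8*, and for *JAZ2*, which passed no test. The G-box is in capitals, each sequence reads 5′ to 3′ on the strand of the gene, and positions are those of TAIR10.1.
*AOS*, chr5:17099569-17099628, reverse strand, G-box 6 bp upstream of the start: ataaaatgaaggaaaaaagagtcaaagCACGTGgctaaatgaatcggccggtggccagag
*OPR3*, chr2:2362256-2362315, reverse strand, 108 bp upstream: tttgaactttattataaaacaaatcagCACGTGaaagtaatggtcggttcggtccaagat
*JAZ8*, chr1:10596315-10596374, forward strand, 10 bp upstream: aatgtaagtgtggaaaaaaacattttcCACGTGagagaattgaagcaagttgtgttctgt
*JAZ7*, chr2:14572969-14573028, forward strand, 34 bp upstream: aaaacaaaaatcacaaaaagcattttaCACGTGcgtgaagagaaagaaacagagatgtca
*JAZ2*, chr1:28150480-28150539, reverse strand, 66 bp upstream: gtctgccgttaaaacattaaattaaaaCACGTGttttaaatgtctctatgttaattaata
*OPR3* also has an evening element, shown here in capitals with that of *AOC2*, the member with the highest level per length.
*OPR3*, chr2:2362303-2362364, reverse strand, evening element 157 bp upstream: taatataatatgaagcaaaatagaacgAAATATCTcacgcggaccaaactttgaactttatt
*AOC2*, chr3:9406512-9406573, forward strand, 130 bp upstream: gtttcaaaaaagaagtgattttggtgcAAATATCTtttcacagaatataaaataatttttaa

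**Figure D2:**
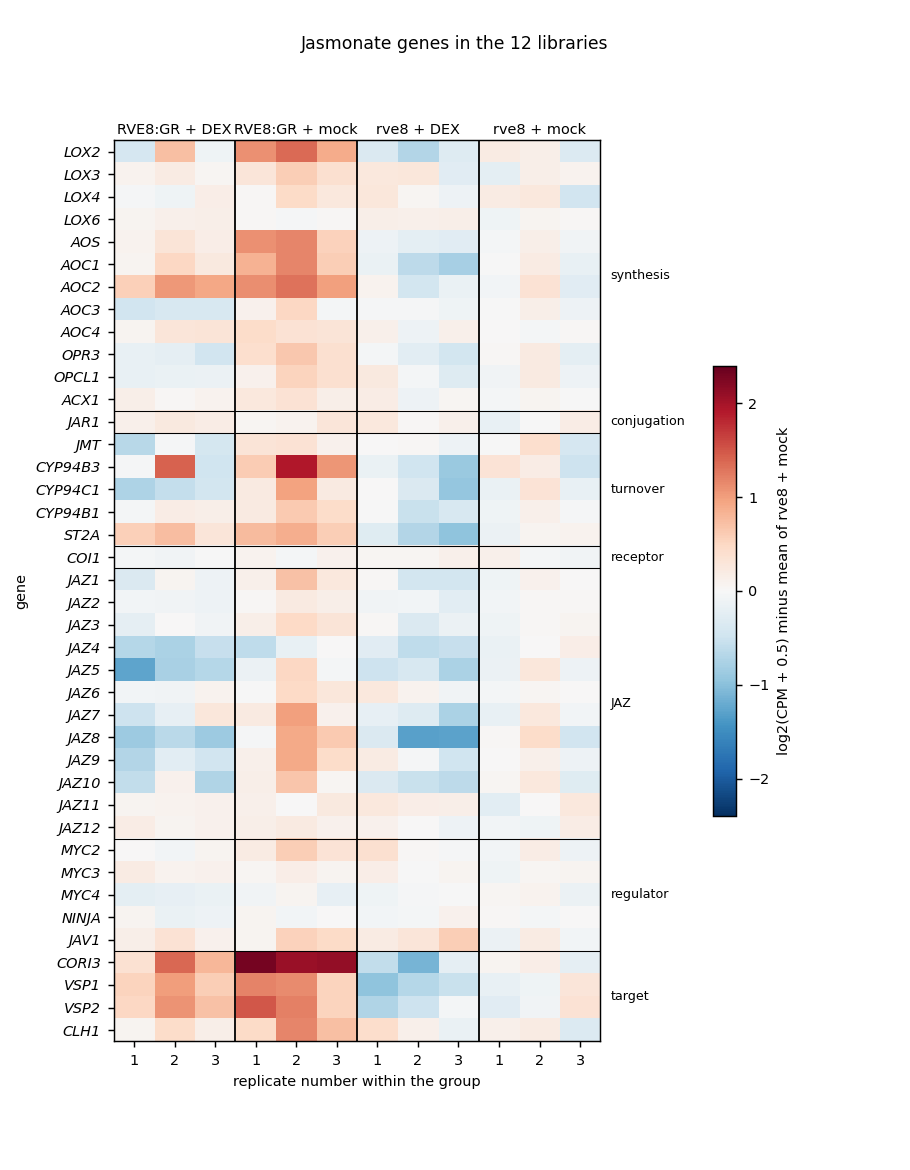
Rows are the 40 genes tested, ordered by role, columns are the 12 libraries, and colour is log2(CPM + 0.5) minus the mean of the *rve8* + mock libraries. *RVE8:GR* + mock is the group with the highest mean for 33 of the 40 genes, and its replicate 2 is the strongest column.

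Across the 40 genes, *RVE8:GR* + mock had the highest mean of the 4 groups for 33, also without its replicate 2. The lowest mean was that of *rve8* + DEX for 17, of *RVE8:GR* + DEX for 14 and of *rve8* + mock for 9. The 4 comparisons below share groups: *RVE8:GR* + mock enters both the response of *RVE8:GR* to DEX and the difference of the lines after mock treatment, so a high value there enters both with opposite signs. Members past the test are those with an adjusted p under 0.01 (edgeR's quasi-likelihood test, Benjamini-Hochberg adjustment over the 19961 models).

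With DEX in *RVE8:GR*, 5 of the 40 genes fell and none rose: the synthesis genes *AOS*, *AOC3* and *OPR3* and the repressor genes *JAZ5* and *JAZ8*. Over all models, 1.36% fell and 2.07% rose. The median log2 fold change of the 40 genes was -0.38, against -0.0022 over all models, and 37 of the 40 fitted values were below 0. The values of the 2 groups did not overlap, with DEX lower, for 20 of the 40 genes, against 11.5% of all models, and with DEX higher for 1, against 12.5%. At an unadjusted p under 0.05 there were 24 lower genes and none higher, where 8.81% of all models were lower and 9.73% higher, and DESeq2 and the exact test also found none higher. Over all models, DESeq2 called 544 higher and the exact test 612.

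In *rve8*, DEX moved no member past the test in either direction, where 1.57% of all models fell and 3.96% rose. At an unadjusted p under 0.05, 7 members were lower and 1 was higher, where 12.2% of all models were lower and 14.3% higher. DESeq2 called 1 lower (*ST2A*) and the exact test 5, and neither called any higher. Over all models, DESeq2 called 450 lower and 1047 higher, and the exact test 508 and 1096. Without *rve8* + DEX 1, *JAZ8* and *ST2A* were called lower, where 118 of all models were lower, against 313 with all libraries. The median of the 40 genes was -0.12, against -0.0074 over all models, and 9 of the 40 did not overlap with DEX lower, against 13.8% of all models, and 1 with DEX higher, against 15.7%. Of the tissue markers, the leaf genes *LHCB1.1* (0.30 ± 0.071, SE, edgeR adjusted p = 0.00691) and *PSBO1* (0.38 ± 0.064, SE, edgeR adjusted p = 0.000432) rose in the same comparison. No root marker was called there. *PYK10* (-0.29 ± 0.073, SE, edgeR adjusted p = 0.0118) and *COBL9* (-0.59 ± 0.18, SE, edgeR adjusted p = 0.031) were lower without overlap, and *SHR* and *SCR* were higher without overlap. The root markers summed to 1546 to 1795 CPM in *rve8* + DEX and 1971 to 2058 in *rve8* + mock. Most of each sum was *PYK10*, at 1466 to 1715 and 1890 to 1982 CPM. The part of these markers in the results for the jasmonate genes was not tested.

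Between the lines after mock treatment, 3 members were higher in *RVE8:GR* and none lower: *CORI3*, *AOS* and *ST2A*. Over all models 1.31% were higher and 0.416% lower. The median was 0.38, against -0.0024, and 20 of the 40 did not overlap with *RVE8:GR* higher, against 11.5% of all models, and none with it lower, against 10.4%. At an unadjusted p under 0.05, 20 were higher and none lower, where 10.6% of all models were higher and 9.56% lower, and neither DESeq2 nor the exact test called a lower member. Over all models, DESeq2 called 217 lower and the exact test 272. No tissue marker was called in this comparison. All 5 shoot markers were fitted above 0, with a median of 0.27, and 3 of them did not overlap, while 4 of the 5 root markers were below 0, with a median over the 5 of -0.21, and 3 of them did not overlap. Summed over the markers, *RVE8:GR* + mock held 27134 to 28358 CPM for shoot and 1783 to 2113 for root, and *rve8* + mock 23488 to 28055 and 1971 to 2058. Most of each root sum was *PYK10*, at 1707 to 2037 CPM in *RVE8:GR* + mock and 1890 to 1982 in *rve8* + mock. The part of the markers in the difference of the jasmonate genes was not tested.

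Between the lines after DEX, *VSP1* and *ST2A* were higher in *RVE8:GR* and no member was lower, where 1.89% of all models were higher and 2.32% lower. The median was 0.045, against 0.0063, and 7 of the 40 did not overlap with *RVE8:GR* higher, against 13.9% of all models. A further 4 (*AOC3*, *JAZ11*, *MYC4* and *COI1*) did not overlap with *RVE8:GR* lower, against 12.8%. At an unadjusted p under 0.05, 9 were higher and 1 (*AOC3*) was lower, where 9.02% of all models were higher and 9.84% lower, and neither DESeq2 nor the exact test called a lower member. Over all models, DESeq2 called 605 lower and the exact test 671.

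The response to DEX was not shown to differ between the lines for any member. The interaction of line and DEX had no call among the 40 genes, where 0.947% of all models were below 0 and 0.24% above 0. At an unadjusted p under 0.05, 9 members were below 0 and none above, against 8.12% and 5.79% of all models, DESeq2 called none, and the exact test was not run for it. Without *RVE8:GR* + mock 3, 1 member (*AOS*) was called below 0, as were 151 of all models, against 189 with all libraries. The median interaction was -0.22, against 0.011 over all models. The leaf marker *LHCB1.1* was called below 0 (-0.57 ± 0.10, SE, edgeR adjusted p = 0.00192).

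These counts rest on few libraries. Without *RVE8:GR* + mock 2, the fall with DEX in *RVE8:GR* was left with 1 gene, *OPR3*, and the difference of the lines after mock treatment with *AOS*. Of all models, 0.718% then fell with DEX and 0.909% were higher between the lines. The fitted changes with DEX of the 4 genes lost were -0.67 for *AOS*, -0.46 for *AOC3*, -0.85 for *JAZ5* and -1.43 for *JAZ8*. The median of the 40 genes was -0.29 for DEX in *RVE8:GR*, 0.23 for the lines after mock treatment and -0.16 for the interaction. In that fit 16 members were lower with DEX at an unadjusted p under 0.05, against 6.92% of all models, 14 were higher between the lines after mock treatment, against 9.11%, and 5 were below 0 in the interaction, against 7.38%. With 2 libraries left in the group, 22 did not overlap with DEX lower, against 15.7% of all models, and 20 did not overlap with *RVE8:GR* + mock higher, against 16.2%.

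Other libraries also carried calls. Without *RVE8:GR* + DEX 1, the fall was likewise left with *OPR3* alone, and without *RVE8:GR* + DEX 3 it held 3 genes (*JAZ5*, *OPR3* and *AOC3*). Over all models, 143 and 157 fell in these fits, against 271 with all libraries. Without *RVE8:GR* + mock 1, *rve8* + mock 1 or *rve8* + mock 3 no member was called higher in *RVE8:GR* + mock, and without *rve8* + mock 2 only *AOC2* was. Over all models, 158, 161, 396 and 113 were higher in these fits, in that order, against 261 with all libraries. After DEX, *ST2A* was called in each of the 12 fits that left out 1 library, while *VSP1* was lost in each of the 6 that left out a library of the groups compared.

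**Figure D3:**
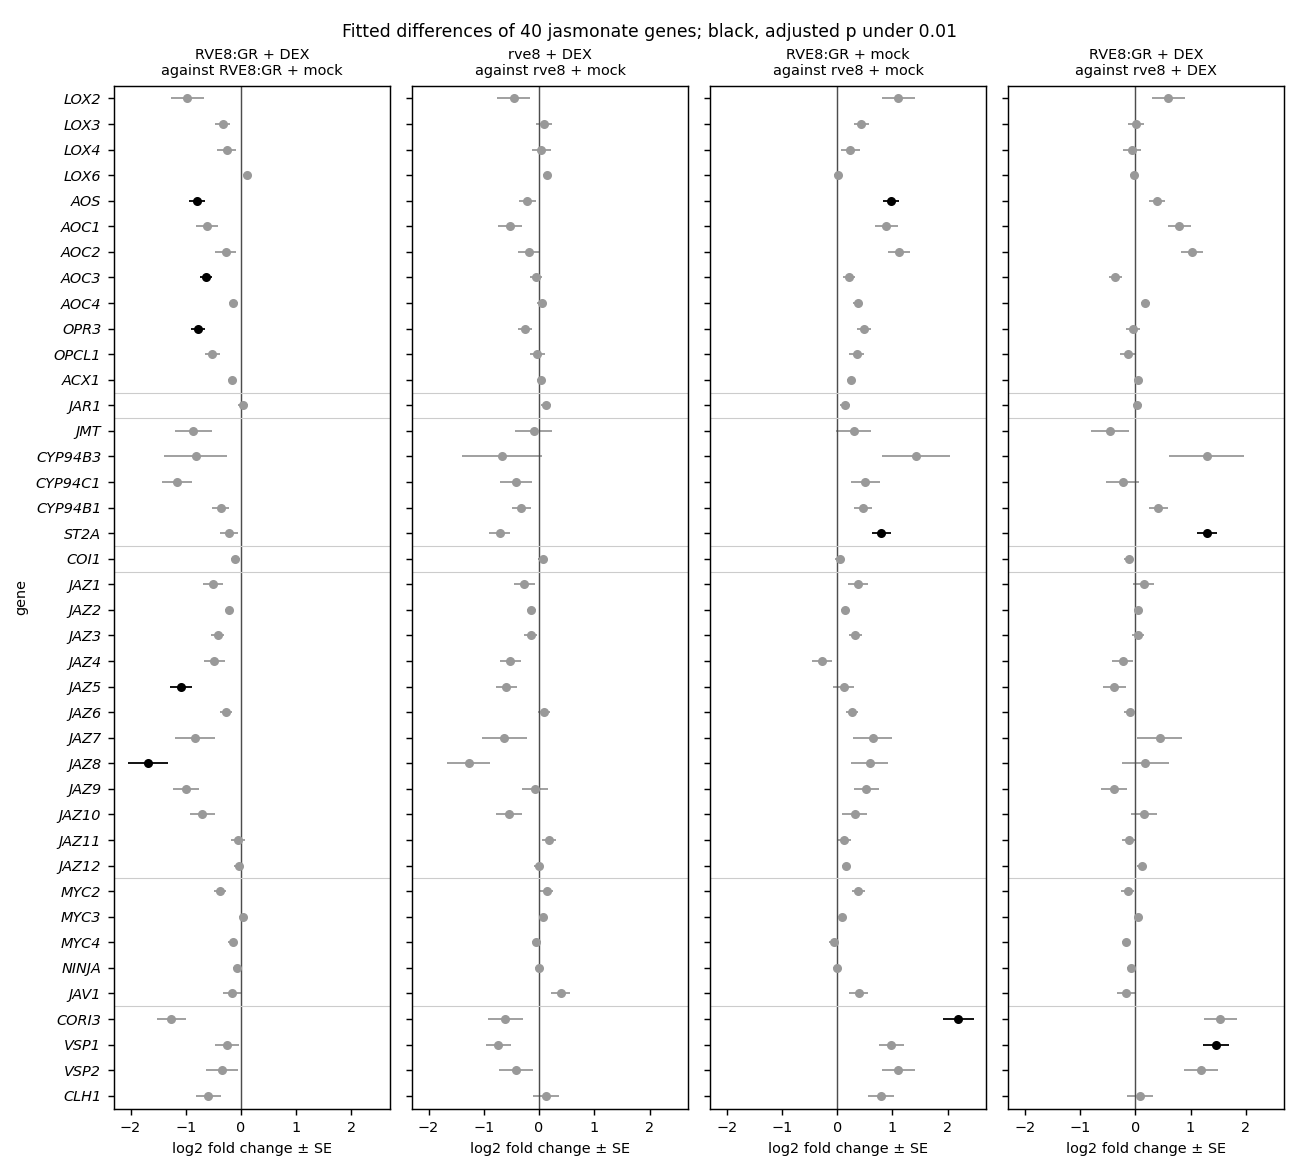
Points are the fitted log2 fold changes and bars their SE for the 40 genes by role, in the 4 comparisons of groups, with calls at an adjusted p under 0.01 in black. The 5 black points of the *RVE8:GR* + DEX against *RVE8:GR* + mock panel all lie below 0, and the black points for the line differences all lie above 0.

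Synthesis begins with the lipoxygenases, which oxidise linolenic acid. *LOX2* (AT3G45140), the main leaf enzyme after wounding, had 123, 270.1 and 151 CPM for *RVE8:GR* + DEX, 348, 417 and 303 for *RVE8:GR* + mock, 129, 100.0 and 131 for *rve8* + DEX and 186, 179.6 and 129 for *rve8* + mock. *RVE8:GR* + mock was above every other group, and *RVE8:GR* + DEX 2 was high within its own group. DEX in *RVE8:GR* was followed by a log2 difference of -0.97 ± 0.30 (SE, edgeR adjusted p = 0.109) and the difference of the lines after mock treatment was 1.11 ± 0.30 (SE, edgeR adjusted p = 0.0765), both short of the test, although neither pair of groups overlapped.

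In the order of groups given above, *LOX3* averaged 11.5 ± 0.706, 14.5 ± 1.67, 11.4 ± 2.33 and 10.7 ± 1.48 CPM (mean ± SD, n = 3), *LOX4* 11.7 ± 1.14, 13.9 ± 2.17, 12.1 ± 1.73 and 11.8 ± 3.07 and *LOX6* 41.5 ± 1.08, 38.8 ± 0.945, 42.2 ± 0.313 and 38.5 ± 2.29. None of these passed the test in any comparison.

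*AOS* (AT5G42650, chr5:17097564-17099595, reverse strand, 1 exon) encodes allene oxide synthase, the committed step. Its values were 99.7, 117 and 106 CPM for *RVE8:GR* + DEX, 203, 215 and 138 for *RVE8:GR* + mock, 87.0, 80.8 and 77.8 for *rve8* + DEX and 91.0, 104 and 89.3 for *rve8* + mock. All 3 *RVE8:GR* + mock libraries lay above the other 9, while *RVE8:GR* + DEX lay above *rve8* + DEX and overlapped with *rve8* + mock. The fall with DEX in *RVE8:GR* was -0.79 ± 0.14 (SE, edgeR adjusted p = 0.00777), and after mock treatment *RVE8:GR* exceeded *rve8* by 0.97 ± 0.14 on the log2 scale (SE, edgeR adjusted p = 0.00424). After DEX the difference of the lines was 0.39 ± 0.15 (SE, edgeR adjusted p = 0.166), and the interaction was -0.58 ± 0.20 (SE, edgeR adjusted p = 0.219). Leaving out 1 library ended the call on the fall in 10 of 12 fits, and the log2 fold change stayed between -0.96 and -0.67 under all 22 alternatives.

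Allene oxide cyclase is encoded by 4 genes. *AOC1*, *AOC2* and *AOC3* lie side by side on chromosome 3, with gaps of 1330 and 1088 bp, and *AOC4* lies on chromosome 1. Little of their sequence is shared in stretches of 50 bases: 2.1% of such stretches of *AOC1* occur in *AOC3* and 1.49% of those of *AOC3* in *AOC1*.

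*AOC3* (AT3G25780, chr3:9409160-9411090, forward strand, 2 exons) had 15.3, 16.2 and 16.2 CPM for *RVE8:GR* + DEX, 22.9, 30.2 and 20.6 for *RVE8:GR* + mock, 20.7, 20.8 and 19.8 for *rve8* + DEX and 21.0, 23.4 and 19.3 for *rve8* + mock. The 3 *RVE8:GR* + DEX libraries lay below all 9 others. It fell with DEX in *RVE8:GR* by 0.63 ± 0.11 on the log2 scale (SE, edgeR adjusted p = 0.00106), and it was the one member for which the difference of the lines after DEX was negative at an unadjusted p under 0.05 (-0.36 ± 0.12 (SE, edgeR adjusted p = 0.0615)). A fit of those groups alone called it lower.

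*AOC2* had 114, 159 and 146 CPM for *RVE8:GR* + DEX, 166, 190.3 and 153 for *RVE8:GR* + mock, 81.3, 56.5 and 68.4 for *rve8* + DEX and 73.4, 97.7 and 63.3 for *rve8* + mock. Every *RVE8:GR* library lay above every *rve8* library. The difference of the lines was 1.12 ± 0.20 (SE, edgeR adjusted p = 0.0161) after mock treatment and 1.02 ± 0.20 (SE, edgeR adjusted p = 0.0154) after DEX, both over the threshold of 0.01. *AOC1* averaged 33.1 ± 5.2, 50.7 ± 10.6, 19.1 ± 4.76 and 27.4 ± 3.58 CPM and *AOC4* 32.8 ± 2.92, 36.1 ± 1.6, 28.8 ± 2.77 and 27.9 ± 0.732, and neither passed the test, with a difference of the lines after mock treatment of 0.89 ± 0.20 (SE, edgeR adjusted p = 0.0385) for *AOC1* and 0.37 ± 0.085 (SE, edgeR adjusted p = 0.0124) for *AOC4*.

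*OPR3* (AT2G06050, chr2:2359115-2362180, reverse strand, 4 exons) encodes the peroxisomal reductase that acts on the cyclised product. Its values were 38.6, 37.6 and 31.6 CPM for *RVE8:GR* + DEX, 58.1, 68.3 and 57.1 for *RVE8:GR* + mock, 42.5, 36.6 and 31.9 for *rve8* + DEX and 44.7, 50.6 and 36.9 for *rve8* + mock. Every *RVE8:GR* + mock library lay above the 9 others. The fall with DEX in *RVE8:GR* was 0.77 ± 0.13 on the log2 scale (SE, edgeR adjusted p = 0.00186), and this call was kept under all 22 alternatives, with log2 fold changes between -0.82 and -0.68. In *rve8* the change was -0.25 ± 0.13 (SE, edgeR adjusted p = 0.236), and the interaction was -0.51 ± 0.18 (SE, edgeR adjusted p = 0.187).

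Of the enzymes that follow, *OPCL1*, which activates the reduced product as a CoA ester, averaged 31.2 ± 0.537, 44.8 ± 6.67, 34.4 ± 6.53 and 35.1 ± 4.77 CPM, and its change with DEX in *RVE8:GR* was -0.52 ± 0.14 (SE, edgeR adjusted p = 0.0376). *ACX1*, an acyl-CoA oxidase of the peroxisome, averaged 100.0 ± 3.85, 112 ± 7.52, 97.2 ± 9.69 and 94.6 ± 4.29 CPM, a narrow range, with 0.25 ± 0.072 (SE, edgeR adjusted p = 0.049) for the lines after mock treatment.

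*JAR1* (AT2G46370), which makes the isoleucine conjugate, was steady. Its values were 52.0, 56.8 and 54.1 CPM for *RVE8:GR* + DEX, 49.4, 51.2 and 58.7 for *RVE8:GR* + mock, 57.6, 48.9 and 52.0 for *rve8* + DEX and 42.4, 47.7 and 54.4 for *rve8* + mock. All 4 groups overlapped, and the largest fitted difference in any comparison of groups was 0.14 ± 0.088 (SE, edgeR adjusted p = 0.406), between the lines after mock treatment.

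**Figure D4:**
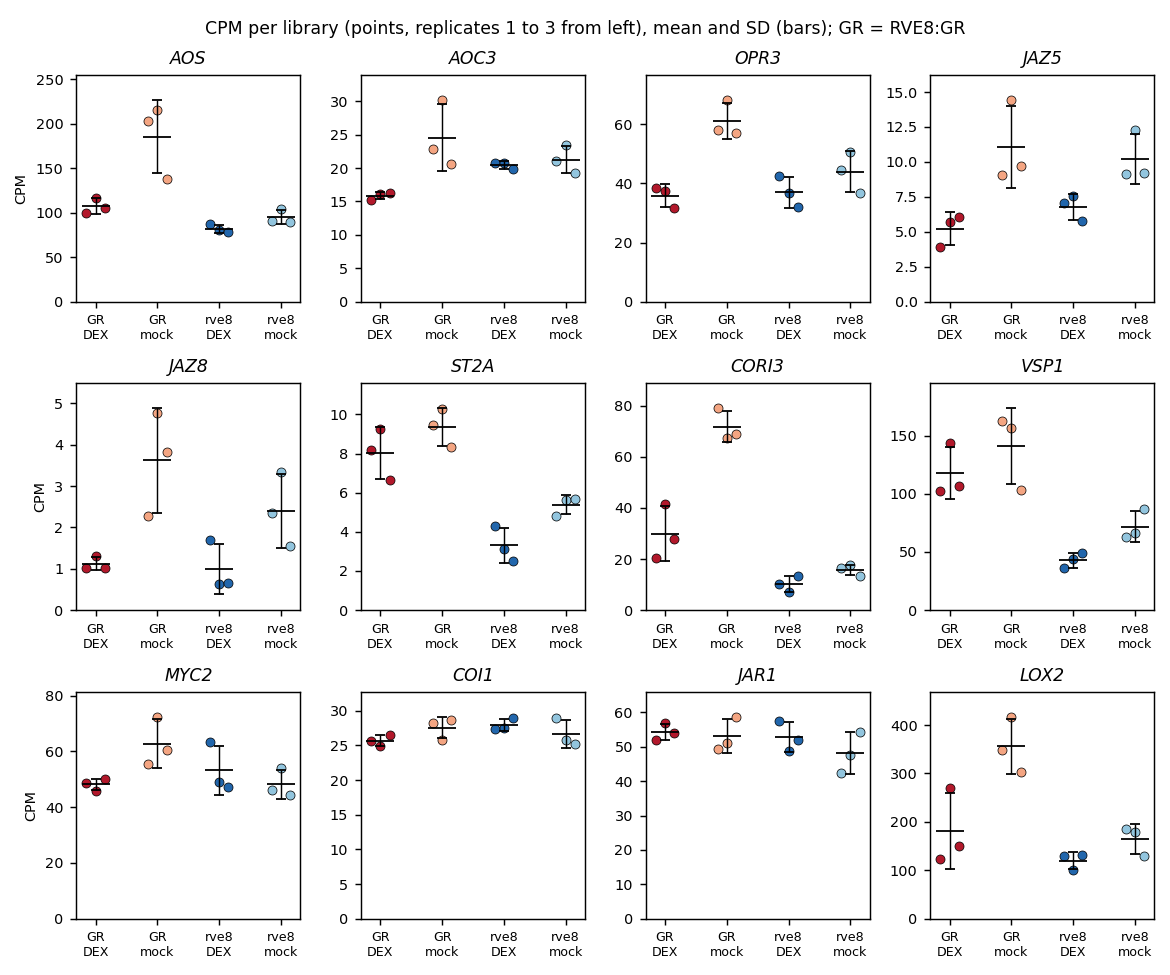
CPM per library (points, replicates 1 to 3 from left to right) for 12 genes, with the mean and SD of each group as bars and GR standing for *RVE8:GR*. In *AOS* and *OPR3* the 3 *RVE8:GR* + mock points lie above all others, in *CORI3* they lie between 67.6 and 79.0, and in *JAR1* the 4 groups overlap.

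Hormone removal follows synthesis. The sulfotransferase gene *ST2A* (AT5G07010, chr5:2174668-2176446, reverse strand, 1 exon), whose enzyme adds sulfate to hydroxyjasmonate, had 8.18, 9.27 and 6.64 CPM for *RVE8:GR* + DEX, 9.46, 10.3 and 8.34 for *RVE8:GR* + mock, 4.29, 3.12 and 2.5 for *rve8* + DEX and 4.82, 5.63 and 5.69 for *rve8* + mock. Every *RVE8:GR* library lay above every *rve8* library. *ST2A* was higher in *RVE8:GR* after DEX by 1.29 ± 0.18 on the log2 scale (SE, edgeR adjusted p = 4.29e-05) and after mock treatment by 0.80 ± 0.17 on the log2 scale (SE, edgeR adjusted p = 0.0079). The call after DEX was kept under all 22 alternatives, and that after mock treatment under 13 of 22. In *rve8*, DEX was followed by -0.71 ± 0.19 (SE, edgeR adjusted p = 0.0172), with the 2 groups not overlapping, and in *RVE8:GR* by -0.22 ± 0.16 (SE, edgeR adjusted p = 0.532).

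The cytochrome P450 genes that oxidise the isoleucine conjugate were expressed at low levels. *CYP94C1* averaged 5.3 ± 0.612, 11.8 ± 3.93, 6.22 ± 2.1 and 8.31 ± 1.87 CPM, and its change with DEX in *RVE8:GR* was -1.16 ± 0.28 (SE, edgeR adjusted p = 0.0258). *CYP94B1* averaged 5.9 ± 0.544, 7.65 ± 1.15, 4.41 ± 0.965 and 5.52 ± 0.482 CPM, and *CYP94B3* averaged 3.43 ± 2.87, 6.17 ± 3.17, 1.44 ± 0.486 and 2.28 ± 0.763 CPM. The replicates of *CYP94B3* spread most: within *RVE8:GR* + DEX it ranged from 1.43 to 6.72 CPM. Its log2 difference of 1.43 ± 0.61 (SE, edgeR adjusted p = 0.236) between the lines after mock treatment did not pass. *JMT*, which makes methyl jasmonate, averaged 0.871 ± 0.304, 1.58 ± 0.186, 1.21 ± 0.0965 and 1.29 ± 0.496 CPM.

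The receptor gene *COI1* (AT2G39940) was among the steadiest. It had 25.6, 24.9 and 26.5 CPM for *RVE8:GR* + DEX, 28.2, 25.8 and 28.7 for *RVE8:GR* + mock, 27.4, 27.4 and 28.9 for *rve8* + DEX and 28.9, 25.8 and 25.2 for *rve8* + mock. The groups overlapped in all comparisons but *RVE8:GR* + DEX against *rve8* + DEX, where the log2 difference was -0.12 ± 0.08 (SE, edgeR adjusted p = 0.444).

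The *JAZ* genes encode the repressors that COI1 targets. With DEX in *RVE8:GR*, all 12 fitted values were below 0, with a median log2 fold change of -0.49, and 2 passed. In *rve8*, 10 of the 12 were below 0 with DEX, with a median of -0.21, and none passed. At an unadjusted p under 0.05, 10 *JAZ* genes were lower with DEX in *RVE8:GR* and 4 in *rve8*, against 8.81% and 12.2% of all models. The groups did not overlap, with DEX lower, for 6 in *RVE8:GR* and 5 in *rve8*, against 11.5% and 13.8%. *JAZ8* (AT1G30135, chr1:10596352-10597341, forward strand, 3 exons), a repressor without the canonical degron, had 1.03, 1.3 and 1.03 CPM for *RVE8:GR* + DEX, 2.27, 4.76 and 3.83 for *RVE8:GR* + mock, 1.7, 0.636 and 0.65 for *rve8* + DEX and 2.35, 3.33 and 1.54 for *rve8* + mock. These are 18 to 28 counts per library for *RVE8:GR* + DEX and 46 to 92 for *RVE8:GR* + mock, and the 2 groups did not overlap. It fell by 1.68 ± 0.36 on the log2 scale (SE, edgeR adjusted p = 0.0062). In *rve8* its change with DEX was -1.27 ± 0.39 (SE, edgeR adjusted p = 0.0389), and the interaction was -0.41 ± 0.54 (SE, edgeR adjusted p = 0.806). The call was kept under 17 of 22 alternatives.

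*JAZ5* (AT1G17380, chr1:5955155-5957511, reverse strand, 4 exons) had 3.88, 5.7 and 6.07 CPM for *RVE8:GR* + DEX, 9.06, 14.4 and 9.71 for *RVE8:GR* + mock, 7.03, 7.57 and 5.75 for *rve8* + DEX and 9.11, 12.3 and 9.18 for *rve8* + mock. Both DEX groups lay below their mock groups without overlap. It fell by 1.09 ± 0.20 on the log2 scale (SE, edgeR adjusted p = 0.00188) in *RVE8:GR*, while the change in *rve8* was -0.59 ± 0.20 (SE, edgeR adjusted p = 0.0598) and the interaction -0.50 ± 0.28 (SE, edgeR adjusted p = 0.459). The call was kept under 19 of 22 alternatives.

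Of the other *JAZ* genes, *JAZ9* averaged 33.8 ± 5.13, 67.4 ± 18.8, 44.3 ± 10.2 and 46.8 ± 3.88 CPM, with its highest library in *RVE8:GR* + mock 2 at 87.9 CPM. Its change with DEX in *RVE8:GR* was -1.0 ± 0.23 (SE, edgeR adjusted p = 0.04), in *rve8* -0.082 ± 0.24 (SE, edgeR adjusted p = 0.869), and its interaction was -0.91 ± 0.33 (SE, edgeR adjusted p = 0.253). Without *RVE8:GR* + mock 2, the change with DEX in *RVE8:GR* was -0.76 ± 0.20 (SE, edgeR adjusted p = 0.0781). *JAZ10*, which is induced strongly by wounding, averaged 5.22 ± 1.87, 8.57 ± 2.19, 4.7 ± 0.524 and 6.89 ± 1.37 CPM. Its change with DEX was -0.70 ± 0.23 (SE, edgeR adjusted p = 0.0786) in *RVE8:GR* and -0.55 ± 0.24 (SE, edgeR adjusted p = 0.148) in *rve8*. *JAZ7*, near the filter, averaged 1.07 ± 0.431, 1.88 ± 0.842, 0.785 ± 0.254 and 1.21 ± 0.268 CPM. No comparison of groups passed for these.

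*JAZ1* averaged 56.2 ± 8.14, 80.3 ± 17.8, 50.8 ± 10.1 and 61.5 ± 4.37 CPM, *JAZ3* 13.8 ± 1.18, 18.5 ± 2.2, 13.3 ± 1.83 and 14.7 ± 0.887, *JAZ4* 3.41 ± 0.289, 4.78 ± 1.1, 3.98 ± 0.554 and 5.73 ± 0.673 and *JAZ6* 69.8 ± 4.48, 84.8 ± 14.7, 75.1 ± 8.88 and 70.8 ± 2.68. In *RVE8:GR*, DEX was followed by -0.42 ± 0.11 (SE, edgeR adjusted p = 0.0254) for *JAZ3* and -0.48 ± 0.19 (SE, edgeR adjusted p = 0.155) for *JAZ4*. In *rve8* the changes with DEX were -0.15 ± 0.12 (SE, edgeR adjusted p = 0.461) for *JAZ3* and -0.52 ± 0.19 (SE, edgeR adjusted p = 0.0709) for *JAZ4*. The *JAZ4* values with DEX and mock did not overlap in *rve8* and overlapped in *RVE8:GR*. *JAZ4* was the single *JAZ* gene whose fitted difference of the lines after mock treatment was negative (-0.27 ± 0.18 (SE, edgeR adjusted p = 0.444)). The means of the remaining *JAZ* genes were 34.0 ± 0.554, 39.6 ± 2.6, 32.9 ± 2.28 and 36.1 ± 1.23 CPM for *JAZ2*, 9.8 ± 0.0942, 10.2 ± 0.854, 10.6 ± 0.42 and 9.35 ± 1.75 for *JAZ11* and 42.6 ± 1.69, 43.8 ± 1.81, 39.2 ± 3.08 and 39.3 ± 4.18 for *JAZ12*. *JAZ2* has a G-box 66 bp upstream of its start, and its change with DEX in *RVE8:GR* was -0.22 ± 0.074 (SE, edgeR adjusted p = 0.0798). Its groups did not overlap in that comparison, with DEX in *rve8* or between the lines after mock treatment, and no difference passed.

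*MYC2* (AT1G32640), which binds the G-box, had 48.6, 45.9 and 50.1 CPM for *RVE8:GR* + DEX, 55.4, 72.4 and 60.7 for *RVE8:GR* + mock, 63.3, 49.0 and 47.3 for *rve8* + DEX and 46.2, 54.2 and 44.4 for *rve8* + mock. The *RVE8:GR* + mock libraries lay above those of *RVE8:GR* + DEX and *rve8* + mock and overlapped with *rve8* + DEX. Its changes were -0.38 ± 0.12 (SE, edgeR adjusted p = 0.0719) with DEX in *RVE8:GR* and 0.38 ± 0.12 (SE, edgeR adjusted p = 0.0813) between the lines after mock treatment, and its interaction was -0.52 ± 0.17 (SE, edgeR adjusted p = 0.139). The relatives *MYC3* and *MYC4* averaged 60.5 ± 2.54, 59.1 ± 2.35, 58.2 ± 3.7 and 55.4 ± 3.58 and 23.9 ± 0.645, 26.5 ± 2.45, 26.7 ± 0.955 and 27.7 ± 2.27 CPM. *NINJA*, the adaptor that links JAZ proteins to a corepressor, averaged 58.7 ± 4.9, 61.8 ± 2.49, 61.8 ± 4.3 and 61.7 ± 1.57 CPM, and *JAV1*, a repressor of the VQ family, averaged 6.14 ± 0.631, 6.96 ± 1.27, 6.93 ± 1.08 and 5.3 ± 0.714 CPM.

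Of the roles, the 4 response genes tested had the highest median log2 differences between the lines, 1.0 after mock treatment and 1.3 after DEX. The 8 other jasmonate response genes tested, from the comparison list described at the end, had medians of 0.24 and 0.20. These 8 did not move together: 5 were fitted above 0 and 3 below after mock treatment, and 6 above and 2 below after DEX. *CORI3* (AT4G23600, chr4:12310379-12313212, forward strand, 7 exons), which encodes a cystine lyase, had 20.4, 41.6 and 27.7 CPM for *RVE8:GR* + DEX, 79.0, 67.6 and 69.1 for *RVE8:GR* + mock, 10.3, 6.93 and 13.5 for *rve8* + DEX and 16.3, 17.5 and 13.5 for *rve8* + mock. Each *RVE8:GR* library lay above each *rve8* library, and within each line DEX lay below mock without overlap, although in *rve8* the nearest libraries were equal to the first decimal. *CORI3* was higher in *RVE8:GR* after mock treatment by 2.19 ± 0.28 on the log2 scale (SE, edgeR adjusted p = 0.00372), with a fold of 4.56. The other comparisons were 1.54 ± 0.30 (SE, edgeR adjusted p = 0.0155) between the lines after DEX, -1.26 ± 0.26 (SE, edgeR adjusted p = 0.024) with DEX in *RVE8:GR* and -0.61 ± 0.32 (SE, edgeR adjusted p = 0.267) with DEX in *rve8*. The call was kept in 9 of 10 settings other than leaving out a library, and it was lost in each of the 6 fits without a library of the groups compared, with log2 values of 2.08 to 2.26 over all alternatives.

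*VSP1* (AT5G24780, chr5:8507590-8509201, reverse strand, 3 exons) and its neighbour *VSP2* (AT5G24770) encode vegetative storage proteins with phosphatase activity and lie 5365 bp apart. Of the 50-base stretches of *VSP1*, 0.394% occur in *VSP2*, so few reads could match both. *VSP1* had 103, 143 and 107 CPM for *RVE8:GR* + DEX, 163, 156 and 104 for *RVE8:GR* + mock, 36.2, 43.9 and 48.7 for *rve8* + DEX and 62.5, 66.0 and 86.7 for *rve8* + mock. All 6 *RVE8:GR* libraries lay above all 6 *rve8* libraries. The difference of the lines was 1.46 ± 0.23 on the log2 scale (SE, edgeR adjusted p = 0.00492) after DEX, which passed, and 0.98 ± 0.22 (SE, edgeR adjusted p = 0.0421) after mock treatment. DEX was followed by -0.26 ± 0.22 (SE, edgeR adjusted p = 0.611) in *RVE8:GR* and -0.74 ± 0.23 (SE, edgeR adjusted p = 0.0743) in *rve8*.

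*VSP2* had 110.4, 165 and 126 CPM for *RVE8:GR* + DEX, 219, 179.5 and 113 for *RVE8:GR* + mock, 46.8, 54.7 and 75.0 for *rve8* + DEX and 64.5, 73.4 and 98.7 for *rve8* + mock. As for *VSP1*, all *RVE8:GR* libraries lay above all *rve8* libraries, but the replicates spread more, from 113 to 219 CPM in *RVE8:GR* + mock. The difference of the lines was 1.19 ± 0.30 (SE, edgeR adjusted p = 0.0543) after DEX and 1.11 ± 0.30 (SE, edgeR adjusted p = 0.076) after mock treatment, both short of the test. Both passed with DESeq2, with the exact test and with the spread estimated without robust weights, a setting added after the data were seen.

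*CLH1*, a chlorophyllase gene, averaged 66.8 ± 9.71, 101 ± 25.7, 63.3 ± 13.0 and 57.7 ± 10.8 CPM, with its highest library again *RVE8:GR* + mock 2 at 129 CPM. Its difference of the lines after mock treatment was 0.80 ± 0.23 (SE, edgeR adjusted p = 0.0962), and 0.58 ± 0.22 (SE, edgeR adjusted p = 0.208) without that library. *TAT3* reached 3.37 CPM in *RVE8:GR* + mock 3 alone, and was at most 0.925 CPM in the other 11 libraries.

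Levels between genes can be compared only per length of cDNA. On that scale, with CPM per kb averaged over the 4 groups, *AOC2* was highest at 87.7, followed by *VSP2* at 77.7, *VSP1* at 70.8, *LOX2* at 68.5 and *AOS* at 57.8. Within *RVE8:GR* + mock the ranges of mean ± SD of the first 4 overlapped, so their order there was not resolved. The order differed between groups: in *rve8* + DEX, *AOC2* at 52.9 was followed by *JAZ6* at 46.8, *CLH1* at 43.5, *VSP2* at 41.4 and *AOS* at 40.3 CPM per kb. The core of signalling was lower, with *MYC3* at 22.7, *JAR1* at 22.4, *MYC2* at 16.1 and *COI1* at 10.7 CPM per kb, and *JAZ7* at 1.5 and *JMT* at 0.746 were the lowest of those tested. The *JAZ* genes ranged from *JAZ6* at 46.8 to *JAZ7*.

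**Figure D5:**
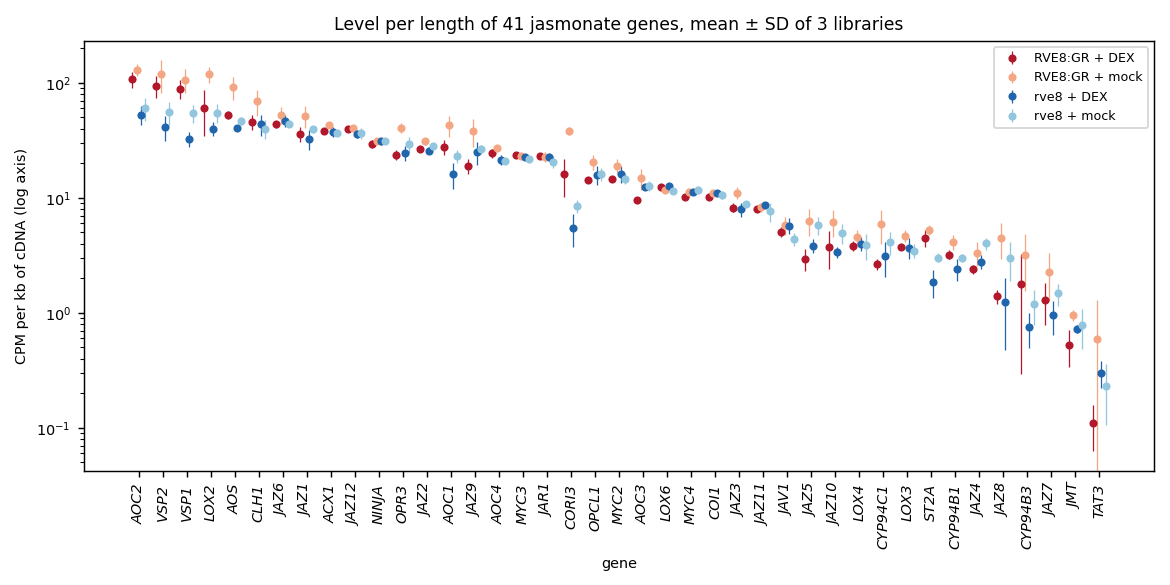
Points are group means of CPM per kb of cDNA (log axis) for the 41 genes in the table, with the SD of 3 libraries as bars, ordered by the average of the 4 groups. *AOC2* is highest and *TAT3*, which was not tested, is lowest, and the groups part most at *CORI3*.

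A further 43 genes of the pathway serve as a comparison, and 36 of them were tested. This list was written from background knowledge, but with earlier results of these data known. With DEX in *RVE8:GR*, 1 of the 36 fell and none rose, with a median log2 fold change of 0.018, where 1.36% of all models fell and 2.07% rose. Between the lines after mock treatment none passed, with a median of 0.11, where 1.31% of all models were higher and 0.416% lower. The gene that fell was *ST2B*, a close relative of *ST2A*, by 0.48 ± 0.11 on the log2 scale (SE, edgeR adjusted p = 0.00677). With DEX in *rve8*, *LOX1*, a lipoxygenase of another specificity, rose by 0.61 ± 0.088 on the log2 scale (SE, edgeR adjusted p = 0.00022), and *JR1*, a jasmonate-responsive lectin gene, fell by 0.48 ± 0.074 on the log2 scale (SE, edgeR adjusted p = 0.000217). *JR1* was also higher in *RVE8:GR* than in *rve8* after DEX, by 0.48 ± 0.074 on the log2 scale (SE, edgeR adjusted p = 0.000124). Over all models, 3.96% rose and 1.57% fell with DEX in *rve8*, and 1.89% were higher in *RVE8:GR* after DEX. Of the 6 turnover genes in this list, all 6 fitted values with DEX in *RVE8:GR* were below 0, with a median of -0.90, and only *ST2B* passed. In *rve8*, 5 of the 6 were below 0 with DEX, with a median of -0.64, and none passed. In each line 3 of the 6 were lower with DEX at an unadjusted p under 0.05, against 8.81% of all models in *RVE8:GR* and 12.2% in *rve8*. Of the 36, 8 were higher at an unadjusted p under 0.05 between the lines after mock treatment and none lower, against 10.6% and 9.56% of all models. With DEX in *RVE8:GR*, 5 of the 36 were higher and 6 lower at that threshold, against 9.73% and 8.81%.

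Touch and wounding raise jasmonate in plants, so markers of such handling are set beside the jasmonate genes. The 7 markers (*TCH2*, *TCH3*, *TCH4*, *ZAT10*, *ZAT12*, *WRKY33* and *WRKY40*) summed to 449.7 to 462 CPM in *rve8* + mock, while *RVE8:GR* + mock gave 453 to 599.6, *RVE8:GR* + DEX 556 to 612 and *rve8* + DEX 642 to 758. *RVE8:GR* + mock 2, the library with the most members at their highest, also had the highest sum of its group, at 599.6 CPM. Within that group *TCH3*, *TCH4*, *ZAT12* and *WRKY40* were highest in replicate 2, and *TCH2*, *ZAT10* and *WRKY33* were highest in replicate 3. Of the 7, *TCH4* was higher in *RVE8:GR* after mock treatment (0.59 ± 0.11, SE, edgeR adjusted p = 0.00918), and none was called with DEX in *RVE8:GR*. In *rve8*, *TCH3* (0.77 ± 0.078, SE, edgeR adjusted p = 2.86e-06) and *ZAT10* (0.58 ± 0.12, SE, edgeR adjusted p = 0.00318) rose with DEX. After DEX, *TCH3* was lower in *RVE8:GR* than in *rve8* (-0.48 ± 0.077, SE, edgeR adjusted p = 0.000253), and its interaction was below 0 (-0.54 ± 0.11, SE, edgeR adjusted p = 0.00704). Their part in the results for the jasmonate genes was not tested.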

How the data were processed

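RNA from 12 seedling libraries (4 groups of 3) was compared. Groups and replicate numbers were taken from the sample labels. The sources disagree on the DEX concentration, which is therefore not stated here. The values deposited by the authors are raw counts, 1 column per library: reads were filtered by quality, aligned with BWA to the TAIR 10 representative cDNA models and counted on the reverse strand only. What was done with reads matching several models is not given in the sources used here. The 33457 empty entries were read as counts of 0, since the smallest count written is 1.

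Counts were tested with edgeR 4.0.16 in R 4.3.3 (quasi-likelihood test, robust dispersion estimates, TMM factors, 4 groups fitted together) on 19961 models (1 CPM or more in 3 or more libraries). Calls needed a Benjamini-Hochberg p-value under 0.01 over all models, and the SE was derived from the F statistic. Replicates are separate pools of seedlings. Within each group, every pair of libraries differed beyond counting error (chi-square divided by its degrees of freedom 4.25 to 11.1). CPM were scaled with TMM factors, and levels per kb use the cDNA length of TAIR10.1, which was joined to the table only through gene names (all 41 members matched). Motifs were searched with Python 3.11.15. The test was checked on simulated data.

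The members and gene lists were chosen with earlier results of these data known. Per-library values are given for the members called in at least 1 comparison and for *MYC2*, *COI1* and *JAR1*. *LOX2*, *AOC2* and *VSP2* were added after their values were seen. The alternatives were DESeq2 1.42.0, the exact test of edgeR (prior degrees of freedom 50), no TMM factors, upper-quartile factors, no filter, at least 10 counts in every library, separate fits for each pair of groups, a replicate block, an adjusted p-value under 0.05 and leaving out each library in turn. A fit without robust estimates was added after seeing the data.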

Additional observations from a re-analysis of the deposited data

How the results depend on the processing

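The number of members called differed between settings, as did that of all models. The 5 lower with DEX in *RVE8:GR* became 9 with DESeq2, 15 with the exact test, 9 without robust estimates and 10 at an adjusted p under 0.05, and ranged from 1 to 6 when 1 library was left out. Over all models, the 271 lower in that comparison became 404, 471, 259 and 590 under the same 4 settings. The 2 higher in *RVE8:GR* after DEX became 6, 9, 6 and 4 (all models 378, then 455, 523, 376 and 661), and ranged from 1 to 3. The 3 higher in *RVE8:GR* after mock treatment became 10, 14, 7 and 9 (all models 261, then 454, 510, 243 and 695), and ranged from 0 to 3. The 0 lower with DEX in *rve8* became 1, 5, 1 and 2 (all models 313, then 450, 508, 281 and 930), was 1 without TMM factors, and ranged from 0 to 2. A fit of only the groups compared called 1 member (*AOC3*) lower in *RVE8:GR* after DEX, against 0. The 0 members below 0 in the interaction ranged from 0 to 1 when 1 library was left out. The other counts of 0 stayed at 0. The cause of these differences was not tested.

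For the 10 pairs of gene and comparison that were called, no direction changed in 220 alternative values. The call was kept in 170 and lost in 50, of which 42 left out 1 library. The setting with an adjusted p under 0.05 reuses the main fit, so it kept all 10 calls by construction. With the replicate number as a block, the counts were 7 lower with DEX in *RVE8:GR*, 2 higher after DEX (*AOC1* and *ST2A*, without *VSP1*) and 4 higher after mock treatment (*OPR3*, *AOC1*, *ST2A* and *AOS*, without *CORI3*). Same-numbered libraries correlated at -0.088 to 0.213 in their deviations from the group means, above 0.1 in 3 of 18 pairs, and 6 of 12 libraries correlated best with one of their own number, so the numbers were not taken to pair the samples.

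The split of calls over all models changed with the scaling and with the test. With DEX in *rve8*, 790 models rose and 313 fell with TMM factors, 521 and 802 without them, and 644 and 436 with upper-quartile factors. Between the lines after mock treatment the split was 261 higher and 83 lower with TMM factors, 216 and 148 without, 222 and 128 with upper-quartile factors, 454 and 217 with DESeq2 and 510 and 272 with the exact test. In the interaction it was 48 above and 189 below 0, 68 and 126 without TMM factors, and 89 and 349 with DESeq2. Signs of the fitted values were compared for the 40 members with TMM factors, without them, with upper-quartile factors and with DESeq2's size factors. Under each, 37 lay below 0 with DEX in *RVE8:GR*, with DEX in *rve8* 8 to 14 lay above 0 (8 without TMM factors), between the lines after mock treatment 36 to 38 lay above 0 and in the interaction 4 to 8 (8 without TMM factors). Depth limits *JAZ7*, *JAZ8* and *JMT* most, with 10 to 92 counts per library.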
